A study of Mus musculus with 6 samples.

Results

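The loci of titin (Ttn) and of muscle creatine kinase (Ckm) each hold a long non-coding RNA (lncRNA) on the opposite strand, Gm13938 inside Ttn and A930016O22Rik inside Ckm. The members were taken from the deposited table by name: 4 genes of 18382, in 7 of its 21158 rows. Ttn has 4 rows of protein-coding transcripts, Ckm has 1, and each lncRNA has 1. RNA came from hearts of male mice under Langendorff perfusion, which feeds an isolated heart through its coronary vessels. The 3 I/R hearts (ischaemia, then reperfusion) were arrested with cardioplegia for 30 min and reperfused during 1 h, and the 3 Sham hearts went on beating. All 6 hearts were perfused in this way, the labels give neither strain nor age, and the arrest was made in isolated hearts without circulating blood.

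Titin is a giant elastic protein that runs from the Z-disc to the M-band of the sarcomere, the contractile unit of muscle. It acts as a molecular spring, and alternative splicing of its I-band region sets how stiff the resting heart muscle is. Muscle creatine kinase moves phosphate between ATP and phosphocreatine at the myofibrils, and its release into the blood has long been used as a sign of muscle damage. No role is given here for the lncRNAs.

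None of the 4 genes passed the test between I/R and Sham hearts. Ttn, Gm13938 and Ckm differed by −0.05, 0.03 and 0.11 on the log2 scale, with hearts of both groups interleaved. A930016O22Rik was at 7232 ± 724 FPKM in I/R hearts and 5914 ± 332 FPKM in Sham hearts (SD, n = 3 each), and its 3 I/R hearts lay above all 3 Sham hearts, but its adjusted p was 0.501 (limma). Groups did not overlap for this 1 of the 4 genes, where 13.7% of all features tested had groups without overlap. FPKM are fragments per kilobase of transcript, scaled by the library's total, and every difference is I/R minus Sham in log2(FPKM + 1), fitted with limma over 12114 features, with p values adjusted over all of them by Benjamini-Hochberg. Of these features 0% had an adjusted p under 0.05, whose smallest value was 0.385, and 8.44% had an unadjusted p under 0.05. With limma voom on recovered reads 0 features passed and 1053 had an unadjusted p under 0.05, against 1023 in the main test.

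The reads behind each value were recovered from the FPKM, whose values are whole multiples of 1 read in each library. The totals were 7690040 to 8896834 reads in I/R hearts and 7233171 to 9902397 reads in Sham hearts for protein-coding rows. For lncRNA rows they were 2213168 to 2597795 reads in I/R hearts and 2025331 to 2792592 reads in Sham hearts. The lncRNA total came to 28.8% to 30.03% of the protein-coding total in I/R hearts and 28.0006% to 28.2% in Sham hearts, without overlap. The listed protein-coding rows held 36.8% to 39.9% of their total, and the listed lncRNA rows 99.84% to 99.86% of theirs. Reads of any protein-coding gene outside its listed rows, Ttn and Ckm among them, are thus not covered. FPKM of the 2 classes are scaled by different totals, so a ratio of FPKM between them is relative to both totals, and levels on 1 scale are given in reads per kilobase. Heart muscle markers were present, with a summed level of 9688 to 10551 FPKM in I/R hearts and 9723 to 10336 FPKM in Sham hearts over 11 listed markers of ventricular cardiomyocytes, Ttn among them. Most of this sum was Fabp3, the fatty acid-binding protein of heart muscle, at 9535 ± 444 FPKM in I/R hearts and 9421 ± 393 FPKM in Sham hearts. Some markers were read thinly, Tnni3 on 10 reads in I/R hearts and 26 in Sham hearts and Myh6 on 200 and 279. Their values are those of the listed rows only. Of the 10 ventricular markers tested 8 were lower and 2 higher in I/R hearts, with a median of −0.33, and none passed the test. Of all 5041 protein-coding genes tested, 2276 were lower and 2765 higher, with a median of 0.02. Of 14 skeletal muscle markers, which include Ckm itself, 3 passed the filter on low values. In whole tissue, fewer cells of a type and less RNA per cell cannot be told apart.

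By the table's coordinates, Ttn lies on chromosome 2, from 76703980 to 76982547 on the minus strand (ENSMUSG00000051747). For Ttn they match RefSeq's GRCm38.p6 to within 10 bases, and Gm13938 was not compared with RefSeq. Gm13938 (ENSMUSG00000086354) spans 63933 bases on the plus strand, from 76722776 to 76786708, wholly inside Ttn and over 23.0% of its span. Ckm lies on chromosome 7, from 19404776 to 19422841 on the plus strand (ENSMUSG00000030399). A930016O22Rik (ENSMUSG00000040705) spans 3952 bases of it on the minus strand, from 19417466 to 19421417, or 21.9% of the Ckm span. Its start and end equal those of RefSeq's GRCm38.p6 annotation, whereas the table's Ckm begins 6318 bases before and ends 1258 bases after the Ckm gene of RefSeq. Whether strand was used in counting is unknown here, and without strand the reads of a gene and of an RNA on its opposite strand cannot be told apart. The values of all 4 genes are therefore uncertain as measures of 1 strand.

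**Figure D1:**
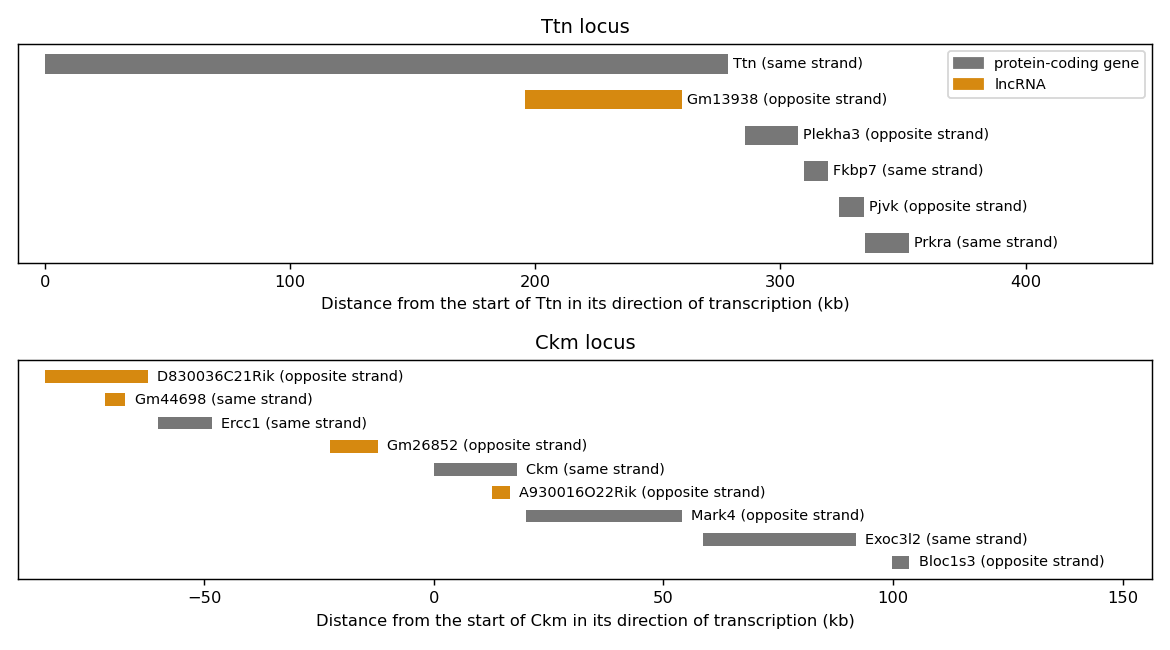
Map of the Ttn and Ckm loci with every gene of the table within 100 kb, as distance in kb from the start of Ttn or Ckm in its direction of transcription; grey bars are protein-coding genes and orange bars lncRNAs. Gm13938 and A930016O22Rik lie wholly inside Ttn and Ckm, on the opposite strand.

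The sequence before a RefSeq start site is shown for both muscle genes, to compare their promoter windows. The Ttn window ends at the gene's start in the table, 10 bases inside the longest RefSeq span, and the Ckm window lies before the RefSeq start, which is 6318 bases inside the table's Ckm span. Each line gives 250 bases from RefSeq (GRCm38.p6), 5′ to 3′ on the gene's strand, chr2:76982548-76982797 (minus) for Ttn and chr7:19410844-19411093 (plus) for Ckm. Capitals mark every match, on either strand, to TATAA (the core of a TATA box) and to CANNTG (the E-box core, bound by the myogenic helix-loop-helix factors in skeletal muscle), which do not overlap here.
Ttn: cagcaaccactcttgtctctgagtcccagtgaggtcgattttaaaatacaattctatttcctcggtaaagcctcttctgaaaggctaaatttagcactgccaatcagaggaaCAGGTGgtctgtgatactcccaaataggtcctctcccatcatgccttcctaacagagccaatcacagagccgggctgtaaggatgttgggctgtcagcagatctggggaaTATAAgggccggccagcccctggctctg
Ckm: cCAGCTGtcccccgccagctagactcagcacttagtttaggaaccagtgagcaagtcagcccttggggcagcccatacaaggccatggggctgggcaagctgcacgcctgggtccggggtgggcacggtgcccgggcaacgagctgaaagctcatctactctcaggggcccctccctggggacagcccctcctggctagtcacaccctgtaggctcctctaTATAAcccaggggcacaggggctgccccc
Each window held 1 TATAA, whose last base lay 24 bases before the start of Ttn and 25 bases before the start of Ckm. Each also held 1 CANNTG, 133 bases before the start of Ttn and 244 bases before that of Ckm. Over 32851 RefSeq windows of the same length 22.8% held TATAA, 66.2% held CANNTG and 16.2% held both. A match describes letters and says nothing of binding in these hearts.

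Ttn, summed over its rows, was at 127, 108 and 113 FPKM in I/R replicates 1, 2 and 3, and at 125, 110.4 and 126 FPKM in Sham replicates 1, 2 and 3. In both groups replicate 2 was the lowest, and the groups overlapped over nearly their whole range. The means were 116 ± 9.82 FPKM in I/R hearts and 120.5 ± 8.74 FPKM in Sham hearts (SD, n = 3 each), a difference of −0.05 ± 0.11 (SE) with a 95% interval from −0.31 to 0.20 (limma, adjusted p = 0.934). The data thus leave room for a true difference within that interval in either direction. Ttn took 0.191% to 0.224% of the protein-coding total in I/R hearts and 0.196% to 0.223% in Sham hearts, and ranked 16 of 8969 protein-coding genes by reads but 221 by mean FPKM.

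The 4 Ttn rows were read very unequally. The row ENSMUST00000099980, with a recovered length of 16891 bases, held 16204, 16095 and 14761 reads in I/R replicates 1, 2 and 3 and 20689, 17797 and 15243 reads in Sham replicates 1, 2 and 3. The row ENSMUST00000099981, with 106824 bases the length of a full titin transcript, held 1036, 930 and 859 reads in I/R hearts and 1386, 1142 and 798 reads in Sham hearts. The shorter row thus carried 94.0% to 94.5% of Ttn reads in I/R hearts and 93.7% to 95.03% in Sham hearts. Per kilobase it had 98.9 to 109 times the reads of the longer row in I/R hearts and 94.4 to 121 times in Sham hearts. How reads shared between transcripts of a gene were counted is unknown here, so this ratio is not a ratio of isoforms.

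Neither of the Ttn rows above the filter on low values passed the test. ENSMUST00000099980 was at 114 ± 9.16 FPKM in I/R hearts and 119 ± 8.66 FPKM in Sham hearts, a difference of −0.06 ± 0.11 (limma over 12963 transcript rows, adjusted p = 0.924). Of these rows 0% had an adjusted p under 0.05 and 8.56% an unadjusted p under 0.05. ENSMUST00000099981 was at 1.09 ± 0.151 FPKM in I/R hearts and 1.15 ± 0.143 FPKM in Sham hearts, a difference of −0.04 ± 0.18 (limma, adjusted p = 0.975). The other Ttn rows, ENSMUST00000151097 and ENSMUST00000190813, were below the filter of a mean of 0.5 FPKM, with 4 reads and 1 read over the 6 hearts. ENSMUST00000151097 had 1 read in each of the 3 I/R hearts and in Sham replicate 1, and the read of ENSMUST00000190813 was in I/R replicate 1.

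Gm13938 was at 52861, 52554 and 47716 FPKM in I/R replicates 1, 2 and 3, and at 48686, 48281 and 52824 FPKM in Sham replicates 1, 2 and 3. I/R replicate 3 was the lowest of the 6 hearts, Sham replicate 3 lay between I/R replicates 1 and 2, and the groups overlapped. The means were 51044 ± 2886 FPKM in I/R hearts and 49931 ± 2514 FPKM in Sham hearts (SD, n = 3 each), a difference of 0.03 ± 0.08 with a 95% interval from −0.15 to 0.22 (limma, adjusted p = 0.944). It held 57676, 67307 and 55303 reads in I/R replicates 1, 2 and 3 and 67029, 64491 and 52744 reads in Sham replicates 1, 2 and 3. That is 2.35% to 2.61% of the lncRNA total in I/R hearts and 2.38% to 2.60% in Sham hearts, and by FPKM Gm13938 ranked 2 or 3 among 9413 lncRNAs in every heart.

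Gm13938 outnumbered Ttn in reads although its recovered row length is 493 bases. With the use of strand in counting unknown and Ttn reads outside its listed rows not covered, the ratios below are of reads assigned to rows. There were 3.35, 3.95 and 3.54 reads of Gm13938 for each Ttn read in I/R replicates 1, 2 and 3, and 3.04, 3.41 and 3.29 in Sham replicates 1, 2 and 3. Per kilobase Gm13938 had 122 to 143 times the reads of the shorter Ttn row in I/R hearts and 111 to 124 times in Sham hearts. On the scale of log2(FPKM + 1), which sets each RNA against the total of its own class, the lncRNA exceeded Ttn by 8.77 ± 0.122 in I/R hearts and 8.68 ± 0.0857 in Sham hearts. The difference of 0.08 gave p = 0.5 in an exact two-sided permutation test over the 6 hearts, where 3 against 3 cannot go below 0.1. Leaving out I/R replicate 2 gave 0.01, leaving out Sham replicate 1 gave 0.04 and leaving out I/R replicate 1 gave 0.12. Over the 6 hearts Gm13938 and Ttn had a Pearson r of 0.34, as a description, since they share libraries and depth.

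Ckm was at 9.39, 7.71 and 6.76 FPKM in I/R replicates 1, 2 and 3, and at 7.40, 7.60 and 6.71 FPKM in Sham replicates 1, 2 and 3. I/R replicate 1 was the only heart above 8 FPKM, and the other I/R hearts lay within or just above the Sham range. The means were 7.95 ± 1.33 FPKM in I/R hearts and 7.24 ± 0.470 FPKM in Sham hearts (SD, n = 3 each), a difference of 0.11 ± 0.18 with a 95% interval from −0.31 to 0.53 (limma, adjusted p = 0.906). Without I/R replicate 1 the difference was −0.0018. The Ckm row, ENSMUST00000208710 with a recovered length of 2742 bases, rests on 198, 188 and 145 reads in I/R hearts and 201, 201 and 133 reads in Sham hearts. An exact Poisson 95% interval, which covers counting error only, ran from 8.13 to 10.8 FPKM for I/R replicate 1 and from 5.61 to 7.95 FPKM for Sham replicate 3. Ckm ranked 1763 of 8969 protein-coding genes by mean FPKM and is represented by this 1 row.

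A930016O22Rik was at 7736, 7558 and 6402 FPKM in I/R replicates 1, 2 and 3, and at 5597, 5887 and 6259 FPKM in Sham replicates 1, 2 and 3. Every I/R heart was above every Sham heart, though I/R replicate 3 and Sham replicate 3 lay close together. The difference was 0.29 ± 0.10 with a 95% interval from 0.06 to 0.51, a 1.22-fold higher level in I/R hearts, with an unadjusted p of 0.0209 and an adjusted p of 0.501 (limma). It ranked 500 of the 12114 features by p. Among the lncRNAs tested, 13.5% had groups that did not overlap and 5.87% had all I/R hearts above all Sham hearts, and 4.81% had an unadjusted p under 0.05 with a higher level in I/R. With 1 heart left out the difference ranged from 0.24 to 0.37 and its unadjusted p from 0.00678 to 0.0704 (limma). Beside it, the lncRNA share of reads given above was higher in every I/R heart, and scaling lncRNAs by the protein-coding total gave 0.35 ± 0.09. A930016O22Rik ranked 8 of 9413 lncRNAs in every heart, so quantile normalization, which gives equal ranks equal values, gave a difference of 0.

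Among the other cell types with marker lists, the sums of 2, fibroblasts and macrophages, were higher in every I/R heart than in any Sham heart. The summed level of the 8 fibroblast markers was 299 to 338 FPKM in I/R hearts and 213 to 290.1 FPKM in Sham hearts. That of the 4 listed macrophage markers, of 8, was 1096 to 1191 FPKM in I/R hearts and 885 to 1064 FPKM in Sham hearts, and none of either list's listed markers was at 0 in all hearts. The fibroblast sum was mostly Col1a1, Lum and Col3a1, and Col1a2 had 1 read in I/R hearts and 0 in Sham hearts. Most of the macrophage sum was Lyz2, at 671, 726 and 782 FPKM in I/R hearts and 613, 571 and 696 FPKM in Sham hearts. For Lyz2 and Lum the groups overlapped. All I/R hearts lay above all Sham hearts for 2 of 6 fibroblast markers tested (Col1a1 and Col3a1, both collagen genes) and for 2 of 4 macrophage markers (C1qb and Cd14), where 8.83% of protein-coding genes did, and none passed the test. The fibroblast marker Pdgfra was at −0.01 ± 0.29. Sums over skeletal muscle markers overlapped, at 358 to 1382 FPKM in I/R hearts and 171 to 1183 FPKM in Sham hearts. Those sums were mostly Acta1. Sums over endothelial, smooth muscle and pericyte, atrial cardiomyocyte and blood markers overlapped as well. The part of these cell markers and of the lncRNA share in the values of A930016O22Rik was not tested.

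**Figure D2:**
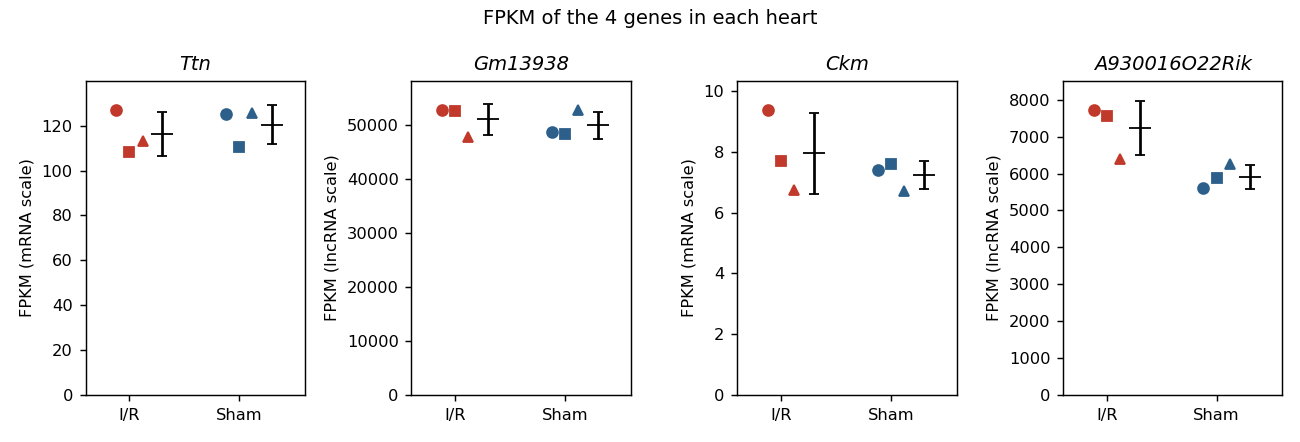
FPKM of Ttn, Gm13938, Ckm and A930016O22Rik in each of 3 I/R and 3 Sham hearts (circle, square and triangle for replicates 1, 2 and 3), with the mean and SD beside each group; the vertical axes start at 0 and mRNA and lncRNA panels are on different FPKM scales. Groups overlap for Ttn, Gm13938 and Ckm, and the A930016O22Rik values of I/R hearts, 6402 to 7736, lie above those of Sham hearts, 5597 to 6259.

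The gap in reads between the rows of a locus was wider at Ckm than at Ttn. Use of strand in counting is unknown, and reads of Ckm outside its listed row are not covered. The ratios below are therefore of reads assigned to rows, not of the RNAs themselves. A930016O22Rik held 40219, 46120 and 35356 reads in I/R replicates 1, 2 and 3 and 36715, 37465 and 29779 reads in Sham replicates 1, 2 and 3. For each Ckm read this came to 203, 245 and 244 reads of the lncRNA in I/R hearts and 183, 186 and 224 in Sham hearts. Per kilobase of row length, A930016O22Rik (2349 bases) had 237 to 286 times the reads of the Ckm row in I/R hearts and 213 to 261 times in Sham hearts. The table holds 336 pairs of a lncRNA inside a protein-coding gene on the opposite strand with at least 1000 reads together. In 195 of them the lncRNA had more reads than the gene, with a median of 2.70 lncRNA reads per gene read over the 336 pairs. Among these pairs A930016O22Rik over Ckm ranked 24 by that ratio and Gm13938 over Ttn ranked 163. A lncRNA row with more reads than the listed rows of its gene is thus common in this table. The listed protein-coding rows held 36.8% to 39.9% of their class total and the listed lncRNA rows 99.84% to 99.86%. Gene reads in these pairs are therefore less complete than lncRNA reads.

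**Figure D3:**
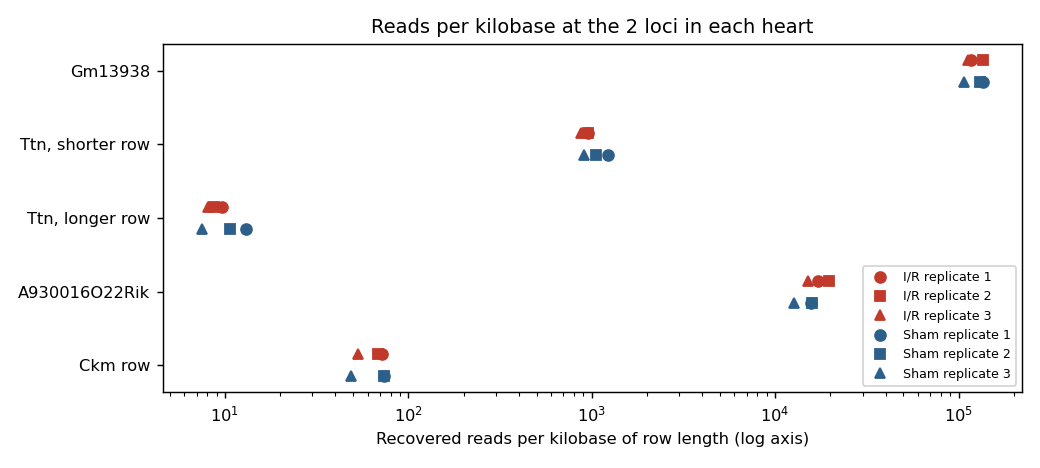
Recovered reads per kilobase of row length on a log axis for Gm13938, the shorter and longer Ttn rows (16891 and 106824 bases), A930016O22Rik and the Ckm row, in each I/R (red) and Sham (blue) heart. Each lncRNA lies more than 100 times above the transcript rows of its locus, and the longer Ttn row has the fewest reads per kilobase.

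A930016O22Rik over Ckm, as a difference in log2(FPKM + 1), was 9.54, 9.76 and 9.69 in I/R replicates 1, 2 and 3 and 9.38, 9.42 and 9.67 in Sham replicates 1, 2 and 3. I/R replicate 1 fell between the Sham hearts, so the groups overlapped. The means were 9.66 ± 0.113 in I/R hearts and 9.49 ± 0.155 in Sham hearts (SD, n = 3 each). Their difference of 0.18 had p = 0.2 in the exact two-sided permutation test, and 0.3 after Benjamini-Hochberg adjustment over the 3 ratios compared. Ckm over Ttn was −3.72 ± 0.139 in I/R hearts and −3.88 ± 0.175 in Sham hearts, a difference of 0.16 with the same exact permutation p of 0.2, adjusted 0.3. Leaving out Sham replicate 3 gave 0.08 and leaving out Sham replicate 2 gave 0.26. For A930016O22Rik over Ckm, the lowest value was 0.12, when Sham replicate 1 was left out, and the highest 0.26, when Sham replicate 3 was. For Gm13938 over Ttn the adjusted exact permutation p was 0.5. Over the 6 hearts A930016O22Rik had a Pearson r of 0.62 with Ckm, 0.71 with Gm13938 and −0.08 with Ttn, and Ckm and Ttn had one of 0.23, all as descriptions.

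**Figure D4:**
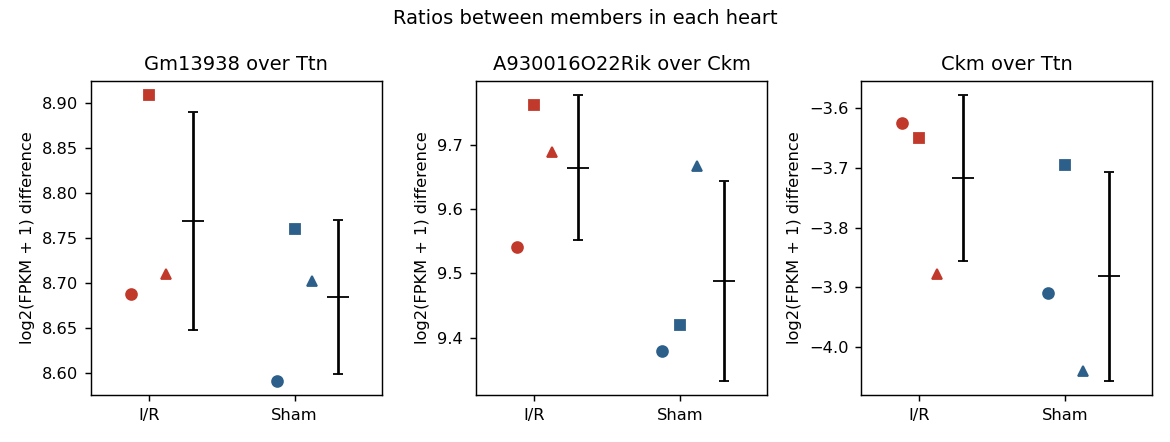
Difference in log2(FPKM + 1) of Gm13938 over Ttn, A930016O22Rik over Ckm and Ckm over Ttn in each I/R and Sham heart (circle, square and triangle for replicates 1, 2 and 3), with group mean and SD; the vertical axes do not start at 0. The groups overlap in all 3 panels.

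The RNAs whose levels followed each member most closely over the 6 hearts, among those with a mean of at least 5 FPKM in the same class, are given as a description. For Ttn, Smpx, which encodes a small muscle protein, had the highest Pearson r (0.99 of 2118 genes compared), ahead of Tmem106b (0.99), Zfp955b (0.98), Sf3a3, a splicing factor subunit (0.98), and Timm17b, a subunit of mitochondrial protein import (0.98). For Ckm they were Eaf1 (0.98), Gfpt1, which opens the hexosamine pathway (0.97), Coq8a, needed for coenzyme Q synthesis (0.97), Gde1 (0.96) and Sac3d1 (0.96). Gm13938 was followed by Gm16150 (0.98), Gm41396, Gm42982, Gm43953 (0.96 each) and Gm15948 (0.96), and A930016O22Rik by Gm44834 (0.99), Gm16575, BC037039, Gm45804 and Gm47108 (0.98 each), of 4504 lncRNAs. With 6 hearts many RNAs reach a high r: 22, 31, 29 and 56 had at least 0.9 with Ttn, Ckm, Gm13938 and A930016O22Rik.

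Genes next to the loci, within 100 kb, did not pass the test either. At Ttn, Plekha3 was at 33.1 ± 3.32 FPKM in I/R hearts and 34.9 ± 2.25 FPKM in Sham hearts (−0.08 ± 0.12), and Prkra, an activator of the kinase PKR, differed by −0.05 ± 0.18. Pjvk and Fkbp7 had 3 reads and 1 read over the 6 hearts. At Ckm the picture was more mixed. Bloc1s3, a subunit of a complex that forms lysosome-related organelles, was at 6.49, 6.56 and 6.41 FPKM in I/R hearts and 4.66, 4.94 and 5.38 FPKM in Sham hearts. All I/R hearts were above all Sham hearts, a difference of 0.32 ± 0.16 (limma, adjusted p = 0.633). The DNA repair gene Ercc1 went the other way, with 1.11, 1.53 and 0.979 FPKM in I/R hearts and 2.58, 4.85 and 4.47 FPKM in Sham hearts (−1.15 ± 0.26; limma, adjusted p = 0.386), on 158 reads in all. The lncRNAs Gm26852 (0.05 ± 0.13), D830036C21Rik (0.14 ± 0.25) and Gm44698 (0.57 ± 0.36) had overlapping groups, and Mark4 and Exoc3l2 were below the filter. Among all protein-coding genes tested 13.9% had groups that did not overlap.

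Proteins that work with titin and with muscle creatine kinase were followed in 7 lists of 124 genes, of which 58 passed the filter. Of these 58, 0 passed the adjusted threshold, where 0% of the 5041 protein-coding genes tested did, and the smallest adjusted p was 0.420 (limma). At an unadjusted p under 0.05 there were 4 of 58, or 6.90%, against 5.1% of all protein-coding genes, and groups did not overlap for 6 of 58, or 10.3%, against 13.9%. All I/R hearts lay above all Sham hearts for 3 of the 58 and below for 3, where 8.83% and 5.12% of protein-coding genes did. Of the 5041 protein-coding genes tested 2765 were higher and 2276 lower in I/R hearts. The median difference over the 58 genes was −0.01, beside 0.02 over all protein-coding genes. The shares were thus close to the background.

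At the Z-disc, where titin is anchored, 7 of 19 genes were tested, with 3 higher and 4 lower and a median of −0.11, or 0.0045 without I/R replicate 1 and −0.21 without I/R replicate 3. Nebl, which encodes nebulette, was at 11.3, 12.1 and 15.02 FPKM in I/R hearts and 18.3, 15.2 and 16.7 FPKM in Sham hearts. All I/R hearts were below all Sham hearts, a difference of −0.36 ± 0.16 (limma, adjusted p = 0.598). Myoz2, the calcineurin-binding calsarcin-1, differed by −0.19 ± 0.13 and Flnc, filamin C, by 0.70 ± 0.36, both with overlapping groups. Tcap, which encodes telethonin at titin's Z-disc end, was not analysed here.

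In the I-band, titin's spring region, 9 of 15 genes were tested, with 5 higher and 4 lower and a median of 0.06, which was −0.03 after quantile normalization and −0.05 without I/R replicate 3. Ankrd1, a stretch-responsive ankyrin repeat protein that binds titin, was at 1360, 968 and 1158 FPKM in I/R hearts and 558, 861 and 731 FPKM in Sham hearts (0.71 ± 0.19; limma, adjusted p = 0.420). All I/R hearts were above all Sham hearts. Fhl1, a LIM protein, differed by −0.41 ± 0.27 and the chaperone gene Hsp90ab1 by 0.12 ± 0.15, with overlapping groups, and Hsp90ab1 turned to −0.04 without I/R replicate 1. In the A-band and M-band, where titin binds myosin and myomesin, 5 of 16 genes were tested, with 2 higher and 3 lower and a median of −0.01, which ranged from −0.13 without Sham replicate 3 to 0.07 without I/R replicate 2. Myom1, which encodes myomesin, was at 8.45 ± 1.99 FPKM in I/R hearts and 9.47 ± 0.437 FPKM in Sham hearts (−0.17 ± 0.20, and 0.02 without I/R replicate 3). For Myh6, a cardiac myosin heavy chain gene, the difference was −0.33 ± 0.16, on 200 reads in I/R hearts and 279 in Sham hearts.

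Of 13 genes in the list of titin splicing regulators, 3 were tested. Rbm20, the main regulator of titin splicing in the heart, was not analysed here. Mbnl2, an RNA-binding protein of the muscleblind family, was at 1.91, 1.76 and 1.77 FPKM in I/R hearts and 2.34, 2.06 and 2.41 FPKM in Sham hearts, without overlap (−0.22 ± 0.18; limma, adjusted p = 0.803). Rbfox1 differed by −0.11 ± 0.25. The list also holds Ranbp2, a nuclear pore gene rather than a splicing regulator, which differed by 0.07 ± 0.09 and enters the median. That median, −0.11, came to 0.06 with Sham replicate 1 left out and −0.26 with Sham replicate 2 left out. Among genes of the thin filament and myosin light chains 11 of 13 were tested, with 2 higher, 9 lower and a median of −0.33, or −0.14 without I/R replicate 1. Cardiac troponin T, Tnnt2, was at 27.8, 25.4 and 33.0 FPKM in I/R hearts and 41.5, 40.9 and 37.5 FPKM in Sham hearts. It was the only gene of this list whose groups did not overlap (−0.47 ± 0.13; limma, adjusted p = 0.457). Ventricular cardiomyocyte markers, which share several genes with this list, had a median of −0.33 as well. All I/R hearts lay below all Sham hearts for 2 of the 10 tested, Tnnt2 and Pln, where 5.12% of protein-coding genes did. The Pln gene encodes phospholamban, an inhibitor of the calcium pump. Pln was at 84.3, 61.0 and 59.3 FPKM in I/R hearts and 131, 99.4 and 119 FPKM in Sham hearts (−0.77 ± 0.17; limma, adjusted p = 0.386) and was named after its values were seen. The part of these markers in the list's values was not tested. Myl2 differed by −0.33 ± 0.15 and Myl4, on 14 reads in I/R hearts and 30 reads in Sham hearts, by −0.50 ± 0.25.

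The list of creatine handling and phosphoryl transfer, the system in which Ckm acts, was split evenly, with 6 of the 12 genes tested higher and 6 lower. Its median was 0.03, or −0.04 without I/R replicate 1 and 0.07 without I/R replicate 3. The list also holds Oma1, a mitochondrial protease gene outside this system, which differed by 0.06 ± 0.13. Oma1 counts among the higher genes and enters the median. Gatm, the first enzyme of creatine synthesis, was at 3.81, 6.07 and 5.29 FPKM in I/R hearts and 3.64, 3.91 and 3.59 FPKM in Sham hearts. I/R replicate 1 lay within the Sham range and the other I/R hearts above it (0.35 ± 0.21; limma, adjusted p = 0.711). The creatine transporter gene Slc6a8 was at 5.18 ± 2.39 FPKM in I/R hearts and 3.51 ± 0.447 FPKM in Sham hearts (0.37 ± 0.34), on 69 and 50 reads. The mitochondrial adenylate kinase gene Ak3 differed by 0.15 ± 0.12, and the cytosolic Ak1, at 28 reads in I/R hearts and 40 reads in Sham hearts, by −0.51 ± 0.34. The other creatine kinase genes Ckb, Ckmt1 and Ckmt2 were not analysed here.

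Of 28 transcription factors known from muscle genes, 11 were tested, with 9 higher and 2 lower and a median of 0.10. The median was 0.03 without I/R replicate 1, 0.20 without I/R replicate 3 and 0.23 without Sham replicate 2. Six5, a homeobox factor of the family that binds a site in the Ckm enhancer, was at 16.4, 14.1 and 14.9 FPKM in I/R hearts and 11.9, 10.5 and 9.93 FPKM in Sham hearts (0.46 ± 0.14; limma, adjusted p = 0.485). Tead1, which binds MCAT elements of muscle genes, was at 28.4, 41.9 and 39.1 FPKM in I/R hearts and 26.1, 25.3 and 23.6 FPKM in Sham hearts (0.51 ± 0.17; limma, adjusted p = 0.498). For both, all I/R hearts were above all Sham hearts. Mef2c, a factor of the MEF2 family that acts on many muscle promoters, differed by 0.31 ± 0.32 with overlapping groups.

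**Figure D5:**
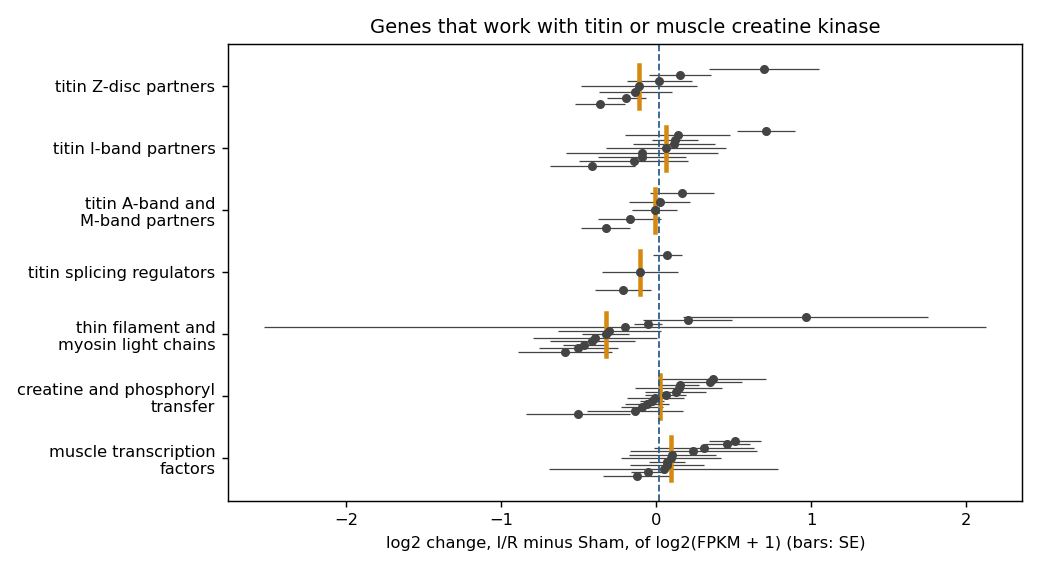
Difference for each tested gene in the 7 lists, I/R minus Sham in log2(FPKM + 1), with SE as bars; the orange line is the median of a list and the dashed blue line the median of all protein-coding genes tested (0.02). Medians lie between −0.33 for thin filament and myosin light chain genes and 0.10 for muscle transcription factors, and no gene had an adjusted p under 0.05.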

How the data were processed

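RNA of 6 mouse hearts was sequenced from poly(A)-selected libraries, per the labels' protocols. Tools named in the submitters' processing notes are HISAT2 2.1.0, HTSeq 0.10.0, fastp 0.23.0 and bcl2fastq 2.19.1.403. They also name the builds GRCm39, GRCm38 and mm10 with no role for each. The annotation and the use of strand in counting are unknown here. The authors deposited FPKM per transcript row. After 40 repeats among 21198 rows were removed, 21158 remained. Coordinates are the table's and match RefSeq's GRCm38.p6 at Ttn and A930016O22Rik to within 10 bases.

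Whole reads (within 0.001) and row lengths, the shortest from 30 bases that fitted, were recovered for all 11745 protein-coding and 9413 lncRNA rows. A length can be too short where a row has few reads. Same-group libraries differed by more than counting noise (chi-square per degree of freedom of 8.06 to 17.4).

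FPKM of a gene's rows were summed, features with a mean of at least 0.5 FPKM were kept, and log2(FPKM + 1) was fitted with limma 3.58.1 in R 4.3.3 with a variance trend and group as the only term. The labels call replicates biological. Ratios per heart were tested by exact permutation. The limma fit and the recovery of reads were tested on simulated data, and the permutation test was not. Figures came from matplotlib 3.10.9 and exact tests from scipy 1.17.1 under Python 3.11.15, with numpy 2.4.6 and pandas 2.3.3. The members and lists were chosen with earlier results of these data known. Named were the members, 3 genes per list by unadjusted p and 6 in any case, neighbours within 100 kb, and the 5 RNAs closest to each member. 1 gene named by this rule is not reported here. As alternatives the pseudocount, the filter, the scaling and the variance model were varied, reads were fitted with voom, a replicate block was added and each heart was left out.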

Additional observations from a re-analysis of the deposited data

How the results depend on the processing

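All 4 genes stayed above an adjusted p of 0.05 in every alternative run, and 0 features passed in each fit over all features. Apart from hearts left out, Ttn ranged from −0.13 to −0.04, Ckm from 0.05 to 0.12, Gm13938 from 0.03 to 0.10 and A930016O22Rik from 0 to 0.36. The 0 is by construction: A930016O22Rik ranked 8 of 9413 lncRNAs in every heart, and quantile normalization gives equal ranks equal values. With lncRNAs scaled by the protein-coding total, chosen after seeing the data, A930016O22Rik over Ckm differed by 0.24 and Gm13938 over Ttn by 0.15. With 1 heart left out, Ttn ranged from −0.12 to −0.0048, Gm13938 from 0.0054 to 0.08, Ckm and its row from −0.0018 to 0.21 and the longer Ttn row from −0.10 to 0.0105. The list of I-band partners was at −0.0308 after quantile normalization and from −0.0491 to 0.14 with 1 heart left out. With 1 heart left out the list of splicing regulators, which holds Ranbp2, ranged from −0.26 to 0.0627. In these runs the thin filament and myosin light chain list ranged from −0.45 to −0.14 and the muscle transcription factors from 0.0277 to 0.23. In the same way the Z-disc partners ranged from −0.21 to 0.0045, the A-band and M-band partners from −0.13 to 0.07 and the creatine list from −0.04 to 0.07, and the creatine list was at −0.03 after quantile normalization and −0.0061 without the filter. The differences in ratio ranged from 0.01 to 0.12 for Gm13938 over Ttn, 0.12 to 0.26 for A930016O22Rik over Ckm and 0.08 to 0.26 for Ckm over Ttn. Hsp90ab1 ranged from −0.0405 to 0.24, Myom1 from −0.27 to 0.0177 and Rbfox1 from −0.31 to 0.0775 with 1 heart left out, and Ranbp2 was at −0.0263 after quantile normalization. The cause of these shifts was not tested. Same-numbered I/R and Sham hearts had deviations from their group means with r of 0.15, 0.03 and 0.03. I/R replicates 1 and 2 were closest to the Sham heart of the same number, and I/R replicate 3 to Sham replicate 2 (r of 0.11). The labels do not say that the numbers mark pairs, so they were not taken as pairs. With the replicate block 0 features passed and 1125 had an unadjusted p under 0.05, and A930016O22Rik differed by 0.29 ± 0.11 (limma, unadjusted p = 0.0507). The Ckm row, with 133 to 201 reads a heart, limits what can be said of Ckm.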
